A study of Mus musculus with 12 samples.

Results

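The Hoxd genes are the Hox genes of mouse chromosome 2. The 9 genes of the cluster (Hoxd1, Hoxd3, Hoxd4, Hoxd8, Hoxd9, Hoxd10, Hoxd11, Hoxd12 and Hoxd13) were looked up by symbol in the deposited expression table, whatever their level. Membership thus rests on the symbol, though the genes, lists and comparisons were chosen with earlier results of these data known. The table held 8 of them among its 21253 genes. Hoxd4 was not analysed here. Levels are given in FPKM, fragments corrected for the length of the transcript and the size of the library, so that they can be compared between genes.

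Hox genes encode homeodomain transcription factors that mark position along the head-to-tail axis. The order of the genes along the chromosome follows the order of their use in the body: Hoxd1 and Hoxd3 lie at the end used towards the head, Hoxd8 and Hoxd9 serve the trunk, and Hoxd10 to Hoxd13 lie at the end used in the tail region, and later in limbs, digits and genitalia. The forebrain and midbrain form without Hox expression. In embryonic stem cells the Hox clusters are textbook targets of Polycomb repressive complex 2 (PRC2), which methylates histone H3 at silent developmental genes and of which EED is a core subunit.

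RNA was sequenced from 4 groups, 12 libraries in all. WT mESC (n = 2) were embryonic stem cells of the E14 line, kept with serum and LIF on gelatin, and EED-/- mESC (n = 2) were a line made earlier, grown the same way, whose allele and parental line the sources used here do not give. WT AntNPC (n = 4) and EED-/- AntNPC (n = 4) were anterior neural progenitors derived from these cells over 5 days in N2B27, a serum-free medium; bFGF was present for 3 days (10 ng/ml), and Xav939, which inhibits WNT signalling, was added on day 2 (5 uM). Both genotypes received every agent. Each genotype was 1 line, so that other differences between the lines and the genotype cannot be told apart, and the labels do not say that replicates were separate cultures, so that p-values measure the spread between these libraries, which may be technical.

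Some facts of the series bear on all values below. FPKM summed to between 453550 and 864235 per library, and they keep no read depth. In AntNPC of both genotypes replicate 1 stood apart, with correlations across genes of 0.956 to 0.964 with the other replicates, which correlated with each other at 0.996 to 0.997. The mESC pairs were less alike still, at 0.890 in WT and 0.916 in EED-/-. WT mESC replicate 2 and EED-/- mESC replicate 1 summed to 864235 and 788753 FPKM, with 34.9% and 27.2% in ribosomal protein genes. Their partners summed to 453550 and 475689 FPKM, with 17.0% and 11.3%. Every comparison with mESC rests on these uneven pairs. Eed itself was not lower by FPKM in the libraries labelled EED-/-: 42.0 to 63.4 FPKM in WT AntNPC against 171 to 202 in EED-/- AntNPC, and 66.2 and 163 against 376 and 644 in mESC. In the authors' deposited table its mean read count went the other way, 3723.13 in WT and 2495.77 in EED-/- AntNPC. The allele being unknown, Eed RNA does not check the genotype, "EED-/-" is used throughout as the label of a library, and every direction rests on that label. Of 8 anterior neural markers, all 8 had a mean of at least 1 FPKM in WT AntNPC and 7 in AntNPC labelled EED-/-, where their summed level was lower (84.1 to 109 against 237 to 422 FPKM). All 6 mESC markers did so in both mESC groups.

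The 8 genes lie within 96.8 kb on chromosome 2 of GRCm38, all on the forward strand and all protein-coding in the GENCODE annotation. In chromosomal order, Hoxd13 (ENSMUSG00000001819) spans 74668310 to 74671599, Hoxd12 (ENSMUSG00000001823) 74675013 to 74677705 and Hoxd11 (ENSMUSG00000042499) 74679557 to 74687016. Hoxd10 (ENSMUSG00000050368) spans 74691924 to 74695105, Hoxd9 (ENSMUSG00000043342) 74697727 to 74700208 and Hoxd8 (ENSMUSG00000027102) 74704615 to 74707933. Hoxd3 (ENSMUSG00000079277) spans 74711927 to 74748442 and Hoxd1 (ENSMUSG00000042448) 74762980 to 74765142. The annotated body of Hoxd3 overlaps that of Hoxd4, that of Hoxd11 overlaps a transcript joined to Hoxd10, and an antisense RNA, Hoxd3os1, overlaps Hoxd8 and Hoxd3. The sources used here do not say how the authors' counting assigned reads in these overlaps or whether it used strand, so the values of Hoxd3, Hoxd8, Hoxd10 and Hoxd11 are less certain than those of Hoxd1, Hoxd9, Hoxd12 and Hoxd13.

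All WT libraries held the Hoxd genes at low levels, and the libraries labelled EED-/- held most of them higher. The summed level of the 8 genes was 0.399 and 1.74 FPKM in WT mESC and 0.0958 to 0.226 FPKM in WT AntNPC. It was 12.1 and 15.9 FPKM in mESC and 15.6 to 18.4 FPKM in AntNPC labelled EED-/-. No WT library reached the lowest EED-/- library of its cell type. Whether this is more RNA in each cell or more cells with Hoxd RNA cannot be told apart in bulk libraries.

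**Figure D1:**
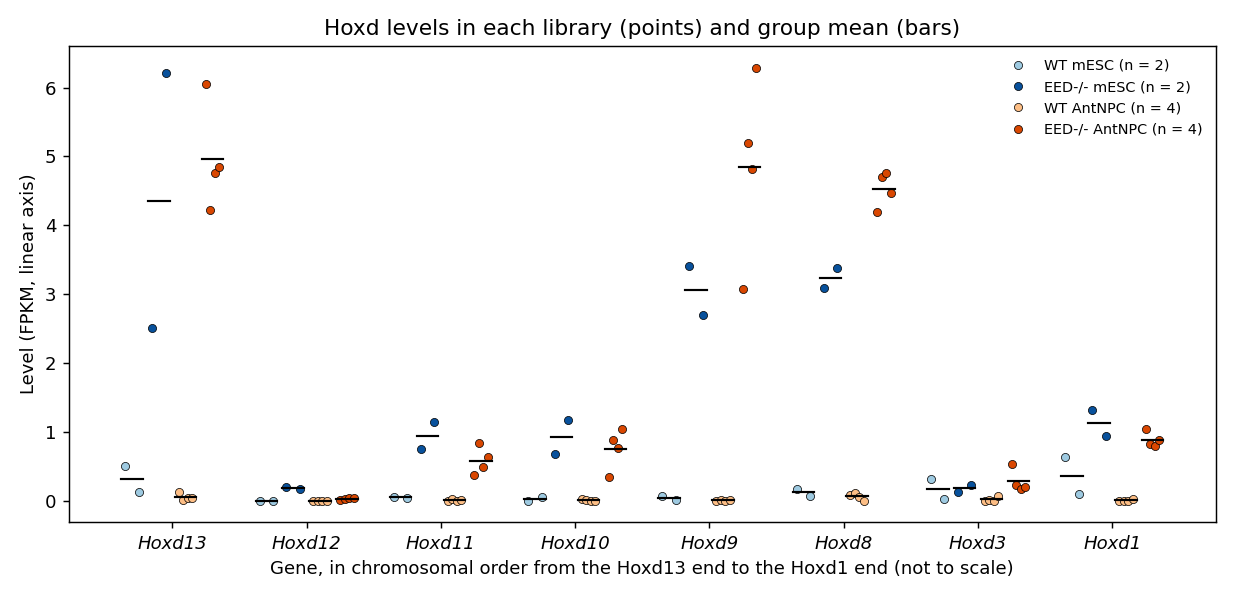
Level of each Hoxd gene (vertical axis, FPKM) in every library (points) of the 4 groups, with the group mean as a bar, for the genes in chromosomal order (horizontal axis). Hoxd13, Hoxd9 and Hoxd8 stand at 2.51 to 6.29 FPKM in the libraries labelled EED-/-, the other 5 genes at or below 1.32 FPKM, and all WT libraries at or below 0.636 FPKM.

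The genes of the tail end were led by Hoxd13, which is known for its role in digits and external genitalia and lies at the very end of the cluster. Its level was 0.498 and 0.123 FPKM in WT mESC, 2.51 and 6.21 in the mESC labelled EED-/-, and 0.124, 0.00906, 0.0423 and 0.0377 FPKM in WT AntNPC. In AntNPC labelled EED-/- it was 6.05, 4.22, 4.75 and 4.85 FPKM. Every EED-/- library lay above every WT library, and the mESC pair labelled EED-/- was the most uneven of any Hoxd gene in FPKM. Hoxd13 rose by a log2 fold change of 2.49 ± 0.21 in AntNPC (SE; limma, adjusted p = 7.8e-06) and by 1.95 ± 0.29 in mESC (adjusted p = 0.00071). All log2 fold changes here are of FPKM + 1, a scale that understates the change of genes of low level, and "rose" and "fell" mean a Benjamini-Hochberg adjusted p under 0.05 over all genes tested.

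Hoxd12, its neighbour, which also serves the distal limb, had the lowest mean level of the cluster in every group except EED-/- mESC, where it overlapped Hoxd3. It was listed at 0 in all 6 WT libraries. Its level was 0.197 and 0.171 FPKM in the mESC labelled EED-/- but 0.0118, 0.0166, 0.0440 and 0.0331 FPKM in AntNPC of that label. The groups did not overlap, and here the mESC libraries were the higher ones. Below the filter on low values (1 FPKM in at least 2 libraries), it was tested in the same model over all 18975 genes with any value above 0. On that scale it rose in mESC (0.24 ± 0.02, SE; limma, adjusted p = 2.0e-05). In AntNPC its change was 0.04 ± 0.01 (adjusted p = 0.080), which passed only with a pseudocount of 0.1 in place of 1 (0.33, adjusted p = 0.022).

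Hoxd11 acts with its Hoxa counterpart in the forearm and kidney. Its level was 0.0553 and 0.0368 FPKM in WT mESC, 0.749 and 1.14 in the mESC labelled EED-/-, and 0, 0.0227, 0 and 0.0136 FPKM in WT AntNPC. AntNPC labelled EED-/- held 0.377, 0.831, 0.483 and 0.632 FPKM. The groups did not overlap in either cell type. Without the filter, Hoxd11 rose by 0.64 ± 0.09 in AntNPC (SE; limma, adjusted p = 0.00047) and by 0.89 ± 0.12 in mESC (adjusted p = 0.00067).

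Hoxd10, known in hindlimb motor neurons of the lumbar spinal cord, ran close to Hoxd11. Its level was 0 and 0.0471 FPKM in WT mESC, 0.672 and 1.17 in the mESC labelled EED-/-, and 0.0194, 0.0128, 0 and 0 FPKM in WT AntNPC. It was 0.336, 0.877, 0.764 and 1.04 FPKM in AntNPC labelled EED-/-, with replicate 1 the lowest. Hoxd10 rose by 0.78 ± 0.13 in AntNPC (SE; limma, adjusted p = 0.0012) and by 0.90 ± 0.19 in mESC (adjusted p = 0.0059). After quantile normalization, which gives every library the same distribution of values, the mESC change was 0.48 (adjusted p = 0.11).

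Of the trunk genes, Hoxd9 had a level of 0.0621 and 0.0131 FPKM in WT mESC, 3.41 and 2.70 in the mESC labelled EED-/-, and 0, 0.0107, 0 and 0.0111 FPKM in WT AntNPC. In AntNPC labelled EED-/- it was 3.07, 5.19, 4.81 and 6.29 FPKM. It was at once among the lowest Hoxd genes in WT AntNPC and among the highest in EED-/- AntNPC. Hoxd9 rose by 2.51 ± 0.16 in AntNPC (SE; limma, adjusted p = 1.7e-06) and by 1.96 ± 0.23 in mESC (adjusted p = 0.00015).

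Hoxd8, the other trunk gene, had a level of 0.174 and 0.0630 FPKM in WT mESC and 3.09 and 3.38 in the mESC labelled EED-/-. It was 0.0825, 0.115, 0.0534 and 0 FPKM in WT AntNPC, and 4.19, 4.70, 4.75 and 4.47 FPKM in AntNPC labelled EED-/-. Its 4 EED-/- AntNPC values lay closest together of the cluster's 3 high genes, at 4.53 ± 0.256 FPKM (SD, n = 4) against 4.97 ± 0.771 for Hoxd13 and 4.84 ± 1.34 for Hoxd9. Hoxd8 rose by 2.38 ± 0.10 in AntNPC (SE; limma, adjusted p = 1.5e-07) and by 1.92 ± 0.14 in mESC (adjusted p = 6.0e-06).

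At the head end, Hoxd3, which patterns the first neck vertebrae, was the gene least separated by genotype in mESC. Its level was 0.315 and 0.0240 FPKM in WT mESC and 0.132 and 0.230 in the mESC labelled EED-/-, so that the mESC groups overlapped. It was 0, 0.00988, 0 and 0.0690 FPKM in WT AntNPC against 0.532, 0.225, 0.173 and 0.201 FPKM in AntNPC labelled EED-/-. There the groups did not overlap, and replicate 1, the library that stood apart, was the highest. Without the filter Hoxd3 rose in AntNPC (0.32 ± 0.09, SE; limma, adjusted p = 0.034), a call that ended with the replicate number as a block (adjusted p = 0.063). In mESC its change was 0.02 ± 0.13 (adjusted p = 0.95).

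Hoxd1, the last gene at the head end, known in mouse sensory neurons, had the highest mean level of the cluster in WT mESC, in ranges that overlapped those of Hoxd13. It was 0.636 and 0.0917 FPKM in WT mESC, 1.32 and 0.938 in the mESC labelled EED-/-, and 0, 0, 0 and 0.0259 FPKM in WT AntNPC. In AntNPC labelled EED-/- it was 1.04, 0.818, 0.792 and 0.883 FPKM. The groups did not overlap in either cell type. Hoxd1 rose by 0.90 ± 0.13 in AntNPC (SE; limma, adjusted p = 0.00029) and by 0.67 ± 0.18 in mESC (adjusted p = 0.020). The mESC call ended after quantile normalization (0.14, adjusted p = 0.72), with libraries scaled to equal sums (0.79, adjusted p = 0.11), without WT mESC replicate 2 (0.37, adjusted p = 0.075) and without EED-/- mESC replicate 1 (0.54, adjusted p = 0.078).

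Hoxd13, Hoxd12 and Hoxd8 are shown with the sequence before their RefSeq start because they set a high gene with many CpG dinucleotides beside a low gene and a high gene with fewer. Each run is 250 bases, written 5′ to 3′ on the forward strand of GRCm38.p6 as RefSeq gives it, with CpG dinucleotides, the site of DNA methylation, in capitals. The windows are chr2:74667975-74668224 for Hoxd13, chr2:74674763-74675012 for Hoxd12 and chr2:74704365-74704614 for Hoxd8. The RefSeq starts of Hoxd13 and Hoxd10 lie before their GENCODE starts. The run of bases checked just after each matched no GENCODE transcript of the gene.
Hoxd13: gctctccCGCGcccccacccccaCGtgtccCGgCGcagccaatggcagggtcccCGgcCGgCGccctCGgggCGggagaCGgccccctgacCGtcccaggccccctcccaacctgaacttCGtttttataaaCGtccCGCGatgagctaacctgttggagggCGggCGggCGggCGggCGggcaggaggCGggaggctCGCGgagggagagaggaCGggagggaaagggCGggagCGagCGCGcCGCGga
Hoxd12: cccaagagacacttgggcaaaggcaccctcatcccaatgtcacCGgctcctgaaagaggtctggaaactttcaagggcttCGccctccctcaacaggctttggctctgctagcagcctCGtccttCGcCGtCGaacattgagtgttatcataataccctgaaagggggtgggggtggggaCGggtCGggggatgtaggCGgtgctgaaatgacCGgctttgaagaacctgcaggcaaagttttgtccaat
Hoxd8: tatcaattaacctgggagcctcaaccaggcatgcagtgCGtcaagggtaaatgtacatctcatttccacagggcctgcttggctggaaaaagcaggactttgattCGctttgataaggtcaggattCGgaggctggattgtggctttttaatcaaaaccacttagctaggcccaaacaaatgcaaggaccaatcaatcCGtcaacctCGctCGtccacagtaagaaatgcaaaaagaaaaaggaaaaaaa
The Hoxd13 window holds 31 CpG, a number that 95.4% of 32851 mouse RefSeq windows of the same length do not exceed, and the Hoxd12 window holds 10 (64.4%). The Hoxd8 window holds 6 (53.7%), the median of all windows, and the Hoxd9 window 13 (70.6%). Among the genes of middle level, Hoxd1 has 24 and Hoxd10 has 20, and Hoxd3 has 12, while Hoxd11, with 2 RefSeq starts, has 2 and 20. The number of CpG thus did not follow the order of the levels, since Hoxd8 with 6 reached the level of Hoxd13 with 31. The motif CCAAT, searched on both strands, is in all 3 windows printed and in 33.8% of all windows, and TATAAA is in the Hoxd13 window, on both strands in overlapping letters, and in 12.4% of all windows.

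Read along the cluster, the levels in the EED-/- libraries did not rise or fall steadily from one end to the other. In AntNPC labelled EED-/- the order of mean levels was Hoxd13 (4.97 FPKM), Hoxd9 (4.84) and Hoxd8 (4.53), then Hoxd1 (0.883), Hoxd10 (0.754), Hoxd11 (0.581) and Hoxd3 (0.283), and last Hoxd12 (0.0264). Neighbours in that order overlapped over the 4 libraries except at 2 places, between Hoxd8 and Hoxd1 and between Hoxd3 and Hoxd12. Among the top 3, Hoxd13 led in replicate 1 and Hoxd9 in replicates 2, 3 and 4. The lowest gene thus lay next to the highest.

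The same 3 genes led in the mESC labelled EED-/-, in the order Hoxd13 (4.36 FPKM), Hoxd8 (3.24) and Hoxd9 (3.06). Their ranges overlapped, and they stood clear of Hoxd1 (1.13), Hoxd11 (0.944) and Hoxd10 (0.922), which overlapped each other. Hoxd12 (0.184) and Hoxd3 (0.181) stood below these. Together Hoxd8, Hoxd9 and Hoxd13 held 83.6% to 86.4% of the summed Hoxd level in AntNPC labelled EED-/- and 74.6% and 77.1% in mESC of that label, against 42.2% and 49.9% in WT mESC. In WT AntNPC that share ran from 31.0% to 100% of sums under 0.226 FPKM, where single values decide it. The 3 genes were picked as the highest of the EED-/- groups, which favours a larger share there than in WT.

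The low WT levels were not even. Of the WT mESC libraries, replicate 1 was the higher for 6 of the 8 genes and held 0.636 FPKM of Hoxd1, 0.498 of Hoxd13 and 0.315 of Hoxd3. Replicate 2 was the higher for Hoxd10 (0.0471 FPKM against 0), and Hoxd12 was at 0 in both. By mean, Hoxd1 (0.364 FPKM), Hoxd13 (0.310), Hoxd3 (0.170) and Hoxd8 (0.119) came first, each overlapping the next. Hoxd11 (0.0460) and Hoxd9 (0.0376) followed, and both overlapped Hoxd3 (0.0240 to 0.315 FPKM) but not Hoxd8. In WT AntNPC no gene passed 0.124 FPKM in any library, and all neighbours in the order overlapped.

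The comparison of genotypes in AntNPC asked which Hoxd genes differed between the labels EED-/- and WT in cells directed to an anterior neural fate. In the fit without a filter, 7 of the 8 genes rose and none fell, where 16.4% of all 18975 genes rose and 6.25% fell. The exception was Hoxd12. The median log2 fold change of the 8 genes was 0.84, against 0.02 for all genes. In the fit with the filter all 5 genes tested (Hoxd1, Hoxd8, Hoxd9, Hoxd10 and Hoxd13) rose, where 18.3% of 13678 genes rose and 7.75% fell. Each of them passed that filter only through the EED-/- libraries, so this second count had to lean to a rise and is given for completeness. In all 8 genes every EED-/- library lay above every WT library, where 27.4% of the 18975 genes did so. The exact permutation test of mean FPKM (two-sided, 4 against 4, 8 tests) gave p = 0.029 for each, the smallest value it allows.

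Without replicate 1 of both AntNPC groups, all 5 filtered genes still rose, by 0.86 (Hoxd1), 2.42 (Hoxd8), 2.67 (Hoxd9), 0.91 (Hoxd10) and 2.44 (Hoxd13). Of all genes tested, 2507 rose and 1060 fell in AntNPC, and 1945 and 1945 did so after quantile normalization, which moved the median log2 fold change of all genes from 0.05 to -0.06.

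**Figure D2:**
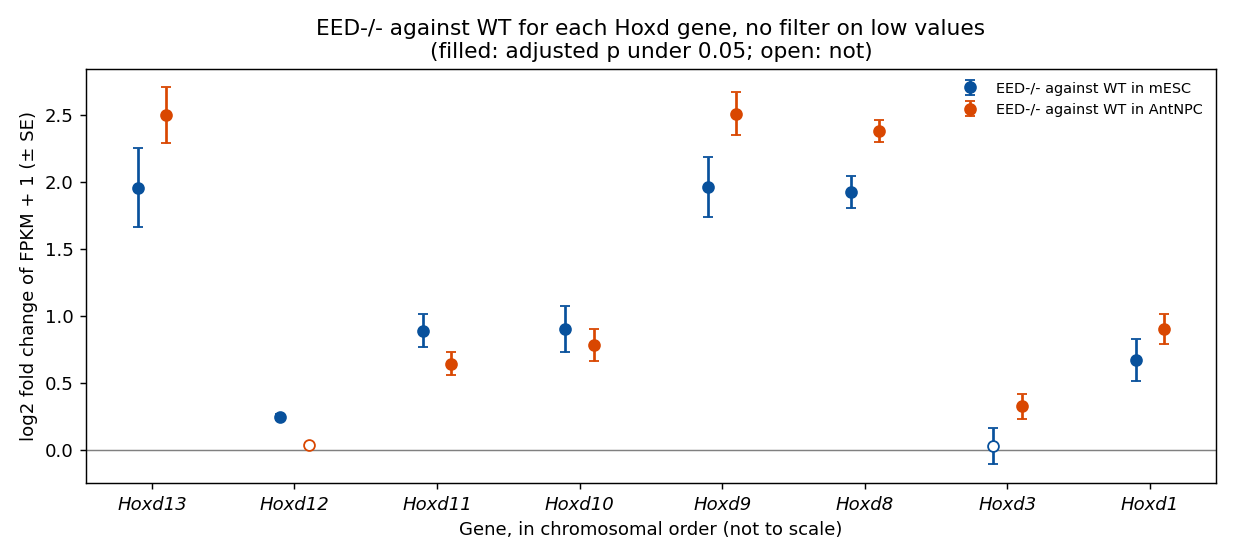
Log2 fold change of FPKM + 1 (vertical axis, ± SE) between libraries labelled EED-/- and WT for each Hoxd gene in chromosomal order (horizontal axis), in mESC (2 against 2) and AntNPC (4 against 4), from the fit without a filter. Filled points passed an adjusted p of 0.05, and the open points are Hoxd12 in AntNPC (0.04) and Hoxd3 in mESC (0.02).

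The genotypes were then compared in undifferentiated cells. In mESC 7 of the 8 genes rose and none fell in the fit without a filter, where 19.5% of all genes rose and 2.38% fell, and here the exception was Hoxd3. The median log2 fold change of the 8 genes was 0.89, against 0.16 for all genes. For the same 7 genes both EED-/- libraries lay above both WT libraries, where 34.3% of all genes did so. With the filter all 5 genes tested rose, where 20.0% of genes did and 2.73% fell, under the same limit as in AntNPC. All genes tested had moved up by a median of 0.29 in mESC, and by -0.05 after quantile normalization, when 3 of the 5 rose (Hoxd8, 1.53; Hoxd9, 1.66; Hoxd13, 1.55). That scaling changed the whole table from 2732 higher and 373 lower to 1216 and 1113. The spread for 2 against 2 libraries was borrowed from AntNPC in these fits, and in the 4 mESC libraries alone limma called none of the 5 (adjusted p of 0.10 for Hoxd8 and Hoxd9) and no gene of the table, with 1703 at an unadjusted p under 0.05.

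Differentiation itself was compared within each genotype. From WT mESC to WT AntNPC none of the 5 tested genes rose and 1 fell, where 30.1% of all genes rose and 18.1% fell. The gene was Hoxd1, at -0.41 ± 0.15 (SE; limma, adjusted p = 0.046). The call ended with the replicate number as a block (-0.40, adjusted p = 0.090), with libraries scaled to equal sums (-0.69, adjusted p = 0.055) and without any 1 of 8 of the 12 libraries. These were WT mESC replicate 1 (-0.12, adjusted p = 0.48), the 4 WT AntNPC libraries and EED-/- AntNPC replicates 2, 3 and 4 (adjusted p of 0.062 to 0.085). The intervals of the other 4 changes all held 0, the widest being that of Hoxd13 (-0.86 to 0.25, 95% interval). With a pseudocount of 0.1 Hoxd13 fell as well (-1.30, adjusted p = 0.037).

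From mESC to AntNPC within the label EED-/-, 1 of the 5 rose and none fell, where 14.4% of all genes rose and 16.7% fell. The gene was Hoxd8, at 0.38 ± 0.12 (SE; limma, adjusted p = 0.035), a call that ended with the block (0.40, adjusted p = 0.14), with a pseudocount of 0.1 (0.47, adjusted p = 0.31), after quantile normalization (0.38, adjusted p = 0.080) and with equal sums (0.64, adjusted p = 0.078). It also ended without any 1 of 7 of the 12 libraries, which were EED-/- mESC replicate 1 (0.33, adjusted p = 0.14) and replicates 2, 3 and 4 of both AntNPC groups (adjusted p of 0.059 to 0.080). Hoxd9 moved by 0.50 (0.06 to 0.94, 95% interval, before adjustment; adjusted p = 0.080). Hoxd9 rose by 0.66 without EED-/- AntNPC replicate 1 (adjusted p = 0.0062) and without replicate 1 of both AntNPC groups (adjusted p = 0.0080), and by 0.77 with equal sums (adjusted p = 0.035). Hoxd13 rose by 0.76 without EED-/- mESC replicate 2 (adjusted p = 0.015). Below the filter, and under the limit on its SE given above, Hoxd12 fell by 0.21 on the log2 scale (adjusted p = 1.7e-05 without the filter, where 17.5% of all genes fell). Its 2 mESC values lay above its 4 AntNPC values.

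Whether the genotype effect differed between the cell types was tested directly. None of the 5 filtered genes passed, where 3.98% of all genes passed with a larger effect in AntNPC and 11.3% with a smaller one. At an unadjusted p under 0.05 only Hoxd8 did (0.46, 95% interval 0.08 to 0.84; limma, adjusted p = 0.10). The intervals for Hoxd13 (-0.24 to 1.32), Hoxd9 (-0.08 to 1.17), Hoxd1 (-0.24 to 0.71) and Hoxd10 (-0.63 to 0.39) leave room for differences in either direction. Single libraries moved some of these over the threshold: Hoxd9 reached 0.71 (adjusted p = 0.037) without EED-/- AntNPC replicate 1, Hoxd13 reached 1.06 (adjusted p = 0.023) without EED-/- mESC replicate 2, and Hoxd1 and Hoxd8 reached 0.53 (adjusted p = 0.041 and 0.047) without WT mESC replicate 2. Hoxd12, under the limit on its SE given above, had a smaller effect in AntNPC without the filter (-0.21 ± 0.02, SE; adjusted p = 0.00044, and 0.0079 with the block). In the same fit 10.5% of all genes did so. The other 7 Hoxd genes did not pass in that fit.

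Read counts were available for AntNPC as group means. In the authors' deposited table, where 26.9% of genes were higher in EED-/- at a p under 0.05, all 8 Hoxd genes were higher. In the authors' deposited table Hoxd13 had a mean count of 5.88 in WT and 517.99 in EED-/- AntNPC, Hoxd9 had 0.51 and 433.17, and Hoxd8 had 1.62 and 341.18. The middle genes in the authors' deposited table were Hoxd1 (0.52 and 66.25), Hoxd10 (0.63 and 47.56), Hoxd11 (0.25 and 33.08) and Hoxd3 (0.52 and 11.86). Hoxd12 rested on very few reads, with 0 and 2.72 in the authors' deposited table and a deposited p of 0.003816. For the other 7 the p is listed as 0 in the authors' deposited table. The WT values in the authors' deposited table were thus a mean of under 6 counts for every Hoxd gene.

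The other Hox clusters, which arose with Hoxd from a common ancestral cluster, were compared for their levels. In AntNPC labelled EED-/- the summed level per library was 25.5 to 31.0 FPKM for the 11 Hoxa genes, 22.6 to 29.7 for the 10 Hoxb genes and 10.2 to 18.1 for the 9 Hoxc genes, against 15.6 to 18.4 for the 8 Hoxd genes. In the fit without a filter 11 of 11 Hoxa, 10 of 10 Hoxb and 8 of 9 Hoxc genes rose in AntNPC, where 16.4% of all genes did, with medians of 1.69, 1.00 and 1.06 against 0.84 for Hoxd. The corresponding counts in mESC were 10 of 11, 8 of 10 and 6 of 9, where 19.5% of all genes rose. The Hoxd share, 7 of 8 in both cell types, was thus the lowest of the 4 clusters in AntNPC and lay between those of Hoxa and Hoxb in mESC, and the differences between clusters were not tested.

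Within paralogue groups, the sets of corresponding genes across clusters, Hoxd genes took different places. In group 13, Hoxd13 was the highest in AntNPC labelled EED-/-: its lowest library (4.22 FPKM) lay above the highest of Hoxa13 (1.21), Hoxb13 (1.14) and Hoxc13 (1.53). In mESC of that label the range of Hoxd13 (2.51 to 6.21 FPKM) overlapped those of Hoxb13 (2.81 to 4.87) and Hoxc13 (2.23 to 2.72). Hoxc13 was also the one gene of this group with a level in WT mESC (1.45 and 4.78 FPKM), where Hoxd13 had 0.498 and 0.123. In group 9, Hoxd9 (mean 4.84 FPKM in EED-/- AntNPC) overlapped Hoxb9 (4.78) and Hoxa9 (3.95), and its lowest library (3.07) lay below the highest of Hoxc9 (3.17). Hoxd8 (4.53) overlapped Hoxb8 (4.73) and lay above Hoxc8 (2.90, highest library 3.20). At the head end, Hoxd1 (0.883) overlapped Hoxb1 (0.661). In other groups the Hoxd gene was lower. Hoxd3 (0.283, highest library 0.532) lay below every library of Hoxa3 (lowest 2.41). Hoxd10 (0.754, highest library 1.04) was not the highest gene of group 10. Groups 11 and 12 are not compared here.

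**Figure D3:**
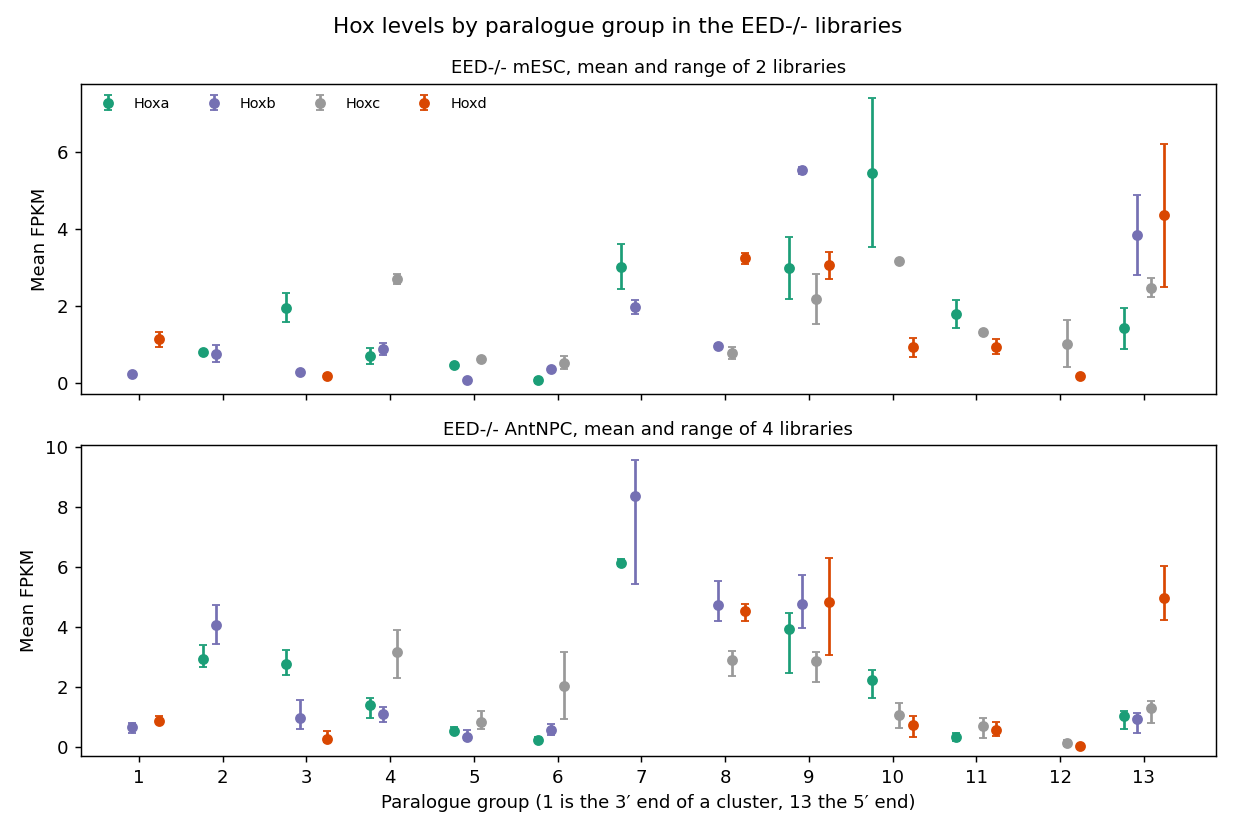
Mean FPKM (vertical axis, with the lowest and highest library as bars) of the Hox genes reported here by paralogue group (horizontal axis) and cluster (colour), in the 2 mESC and the 4 AntNPC libraries labelled EED-/-. Hoxd13 stands alone at 4.97 FPKM in group 13 of AntNPC, while Hoxd1 (0.883) overlaps Hoxb1 (0.661).

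Genes around the cluster were examined to see where the change along the chromosome ended. The table held 7 genes that start within 1 Mb of the Hoxd genes. Evx2, a homeobox gene just beyond Hoxd13 with which it shares limb enhancers, was at 0 FPKM in all 6 WT libraries. It was 0.00610 and 0.0154 FPKM in mESC and 0.00974 to 0.0470 FPKM in AntNPC labelled EED-/-, and its mean counts were 0 and 4.04 (p = 0.000385) in the authors' deposited table. Without the filter its AntNPC change was 0.04 ± 0.01 (SE; limma, adjusted p = 0.051). With a pseudocount of 0.1 it passed (0.34, adjusted p = 0.016). In mESC Evx2 passed with neither pseudocount (adjusted p = 0.62 and 0.47). Beyond it lies Lnp, which encodes a protein of the endoplasmic reticulum and was at 13.4 to 19.2 FPKM in WT and 14.6 to 18.5 FPKM in EED-/- AntNPC, with a log2 fold change of 0.07 ± 0.43 (SE; limma, adjusted p = 0.94). On the Hoxd1 side, Mtx2, for a mitochondrial import protein, rose in AntNPC from 28.8 ± 2.86 to 47.9 ± 3.30 FPKM (SD, n = 4; 0.72 ± 0.14, SE; adjusted p = 0.0028). Its change in mESC was 0.49 ± 0.20 (adjusted p = 0.10), and the difference of the genotype effect between the cell types was 0.23 (adjusted p = 0.63).

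Of the 6 neighbours that passed the filter, 2 rose and none fell in AntNPC, where 18.3% of all genes rose and 7.75% fell. In mESC none passed, where 20.0% of all genes rose and 2.73% fell. Some did in alternative fits of mESC: Atp5g3, for a subunit of ATP synthase, after quantile normalization (0.46, adjusted p = 0.048) and without WT mESC replicate 2 (1.12, adjusted p = 0.042), Lnp without WT mESC replicate 1 (1.36, adjusted p = 0.045) and Mtx2 without EED-/- mESC replicate 2 (0.79, adjusted p = 0.012). Besides Mtx2, the gene that rose in AntNPC was Nfe2l2, which encodes the antioxidant regulator NRF2 and lies near the far edge of the window. It rose from 5.99 ± 1.52 to 14.2 ± 3.57 FPKM (SD, n = 4; 1.12 ± 0.23, SE; limma, adjusted p = 0.0038), a call that ended with libraries scaled to equal sums (1.19, adjusted p = 0.061). In AntNPC Atf2, Atp5g3 and Hnrnpa3 had changes of -0.22, 0.08 and -0.03. The median log2 fold change of the 6 neighbours in AntNPC was 0.08, against 0.05 for all genes. Over the 1099 other tested genes of chromosome 2 it was -0.01 in AntNPC and 0.21 in mESC.

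**Figure D4:**
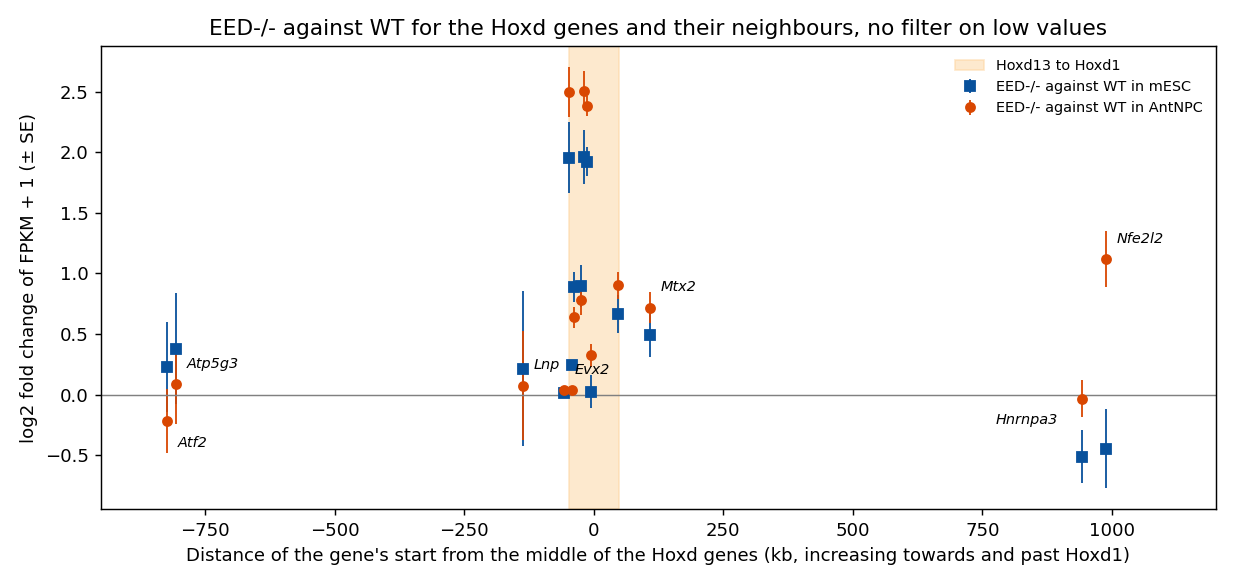
Log2 fold change of FPKM + 1 between libraries labelled EED-/- and WT (vertical axis, ± SE) for the Hoxd genes and the 7 neighbours against the distance of each start from the middle of the Hoxd genes (horizontal axis, kb), in AntNPC (circles) and mESC (squares). Lnp (0.07 in AntNPC) and Evx2 (0.04) lie near 0 beside Hoxd13, while Mtx2 (0.72) lies on the Hoxd1 side. The scale understates Evx2, whose levels were very low and which passed in AntNPC with a pseudocount of 0.1 (0.34).

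Signals and factors that act on Hox genes were read from a list of 16 genes, of which 13 passed the filter. In AntNPC 6 rose and 4 fell, where 18.3% of all genes rose and 7.75% fell. T (Brachyury), a transcription factor of the primitive streak and tailbud, stood at 0.204 to 0.724 FPKM in WT and rose to 5.77 to 8.19 FPKM (2.33 ± 0.16, SE; limma, adjusted p = 2.8e-06), and Cyp26b1, which degrades retinoic acid, rose by 2.86 (adjusted p = 0.00017). Cyp26a1, which also degrades retinoic acid, fell by 3.39 on the log2 scale (adjusted p = 2.0e-05), from 15.6 to 48.1 FPKM down to 0.851 to 1.65 FPKM. Gli3, a transcription factor of hedgehog signalling, fell by 1.26 (adjusted p = 0.0022). Wnt3a, a tailbud signal, fell by 2.73 (adjusted p = 0.0053), and its WT AntNPC values ran from 0.627 to 14.3 FPKM. Gdf11, a ligand known to act on tail-end Hox genes, fell by 0.54 (adjusted p = 0.022), which did not hold with the block (adjusted p = 0.093) or with equal sums (adjusted p = 0.23). After quantile normalization 3 of the 13 rose and 4 fell, where 1945 of all 13678 genes rose and 1945 fell.

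In mESC 5 of the 13 rose and 1 fell, where 20.0% of all genes rose and 2.73% fell. Cdx1 and Cdx2, caudal-type activators of trunk Hox genes, rose by 1.98 (limma, adjusted p = 2.0e-05) and 1.31 (adjusted p = 6.1e-05). Cdx1 was at 4.18 and 5.73 FPKM and Cdx2 at 1.46 and 1.80 FPKM in the mESC labelled EED-/-, and both were at or below 0.454 FPKM in AntNPC of either genotype. Cyp26a1 rose in mESC by 2.60 (adjusted p = 0.0019), opposite to its change in AntNPC, a difference between the cell types of -5.99 (adjusted p = 0.00012). Aldh1a2, which makes retinoic acid, rose by 0.96 (adjusted p = 0.015) and Gdf11 by 0.68 (adjusted p = 0.039), neither of which held after quantile normalization (adjusted p = 0.54 and 0.80), and Gdf11 was also lost with equal sums (adjusted p = 0.20), with the block (adjusted p = 0.14) and without replicate 1 of both AntNPC groups (adjusted p = 0.051). Rara, a retinoic acid receptor, fell by 1.31 (adjusted p = 0.013).

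The TALE homeodomain proteins bind DNA together with Hox proteins. Of the 9 TALE genes, all tested, 3 rose and 2 fell in AntNPC, where 18.3% of all genes rose and 7.75% fell. Meis1 stood at 1.02 to 3.86 FPKM in WT and rose to 8.04 to 12.6 FPKM (1.64 ± 0.26, SE; limma, adjusted p = 0.00081), Meis2 rose by 1.39 (adjusted p = 0.0027) and Pknox1 by 1.06 (adjusted p = 0.0014). Pbx2 fell by 0.62 (adjusted p = 0.0027) and Pknox2 by 0.63 (adjusted p = 0.023), but with libraries scaled to equal sums neither passed (adjusted p = 0.11 and 0.16), and Pknox2 did not with the block (adjusted p = 0.057). In mESC 5 rose and none fell, where 20.0% of all genes rose and 2.73% fell. The rise was led by Meis3 (2.11, adjusted p = 0.00091) and Meis2 (2.10, adjusted p = 0.0024). The other risers were Meis1, Pbx2 and Pbx3, none of which passed after quantile normalization (adjusted p = 0.19, 0.30 and 0.23). With the replicate block 3 of the 9 rose in mESC, Pbx2 and Pbx3 being lost (adjusted p = 0.11 and 0.063). In that fit 1735 of all 13678 genes rose.

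In AntNPC the summed markers of other cell types were higher with the label EED-/-, except those of posterior neural and tailbud cells, which overlapped. Within that list T rose and Wnt3a fell, as given above. The part of any of these markers in the Hoxd levels was not tested. The summed level of the 7 posterior neural and tailbud markers was 7.27 to 11.2 FPKM in AntNPC labelled EED-/- and 1.33 to 15.7 FPKM in WT AntNPC, with 1 of 7 at a mean of at least 1 FPKM in each and Cdx4 at 0 in every WT AntNPC library. In mESC that sum was 8.44 and 9.42 FPKM with the label EED-/- against 1.82 and 1.95 FPKM in WT. In AntNPC the 6 mesoderm markers in the table summed to 21.1 to 33.2 against 1.36 to 6.32 FPKM (3 of 6 against 1 of 6 at such a mean), and the 4 endoderm markers to 13.9 to 18.0 against 0.518 to 0.823 FPKM (4 of 4 against none). For the 6 trophoblast markers the sums were 147 to 211 against 13.1 to 15.7 FPKM in AntNPC, and 448 and 991 against 12.3 and 16.3 FPKM in mESC. The 6 mESC markers summed to 123 to 183 FPKM in AntNPC labelled EED-/- against 20.1 to 58.5 FPKM in WT AntNPC, and the 5 markers of surface ectoderm and neural crest to 18.3 to 21.2 against 1.37 to 3.70 FPKM. In mESC the mesoderm sums were 81.3 and 176 against 2.94 and 3.50 FPKM and the endoderm sums 27.0 and 34.8 against 0.615 and 2.44 FPKM. None of the markers of these lists was at 0 in every library of an EED-/- group.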

How the data were processed

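Polyadenylated RNA (TruSeq v2, per the labels' protocols) was profiled in 12 libraries. The authors deposited FPKM per library, taken as such because the submitters' processing notes name TopHat2, Cufflinks and GRCm38 (mm10); the header names no unit, and the sources used here give neither versions nor the annotation. The deposited table also holds the authors' mean FPKM, mean read counts (a normalized signal, AntNPC only) and a p-value not stated to be adjusted; for 8 libraries the submitters' processing notes also name DESeq2. Depth per library is unknown, and an exact 0 can be a failed estimate. Columns were matched to samples by name.

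Values were analysed as log2(FPKM + 1). Genes reaching 1 FPKM in 2 or more libraries (13678) were fitted with limma 3.58.1 (trend, R 4.3.3) as 4 group means over all 12 libraries (8 residual and 2.93 prior degrees of freedom, Benjamini-Hochberg over all genes, two-sided, threshold 0.05), and again without the filter so that all 8 Hoxd genes were tested. The script was tested on simulated data. Exact permutation tests used SciPy 1.17.1. Positions are from GENCODE M21, which matched 21149 genes, and sequences from RefSeq (GRCm38.p6). Same-numbered AntNPC libraries deviated from their group means together (correlations 0.562, 0.318, 0.422 and 0.332), though differently numbered libraries among replicates 2 to 4 did so as well (0.332 to 0.404), so that only replicate 1 is told apart by its number; the replicate number was also fitted as a block. The mESC numbers did not deviate together (-0.67). Other alternatives were the pseudocount, the filter, quantile normalization, equal sums (TPM) and leaving out libraries.

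The genes, lists and comparisons were chosen with earlier results of these data known. Named in the text are all Hoxd genes present, Eed, and of each list up to 2 genes per direction of smallest adjusted p, or all where 5 or fewer passed; paralogues and unchanged neighbours named beside these were chosen after their values were seen. A few genes that the rule would name are not reported here.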

Additional observations from a re-analysis of the deposited data

Results flagged for a closer look

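Of 30 groups of 4 AntNPC libraries (Hoxd genes and neighbours, groups of varying value), 4 held a library whose gap to the nearest other exceeded Dixon's 95% critical share of the range, and chance alone gives about 1 in 20. WT AntNPC replicate 4 was high for Hoxd1 (0.0259 FPKM, with the other 3 at 0, where any value above 0 exceeds that share) and for Hoxd3 (0.0690 FPKM, with the others at or below 0.00988). EED-/- AntNPC replicate 1 was high for Hoxd3 (0.532 FPKM against 0.173 to 0.225). WT AntNPC replicate 1 was high for Nfe2l2 (8.27 FPKM).

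The test of the difference covered 5 Hoxd genes and 6 neighbours with the filter and 3 more Hoxd genes without it. In 2 of these, 1 from each fit, the genotype effect differed between AntNPC and mESC. For Hoxd12 it was smaller in AntNPC (-0.21 on the log2 scale, fit without the filter), as for 10.5% of all genes in that fit, and under the limit on its SE given above. For Nfe2l2 the effect was larger in AntNPC (1.56, limma, adjusted p = 0.023), as for 3.98% of the filtered genes. This difference did not pass with libraries scaled to equal sums (1.61, adjusted p = 0.21).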

How the results depend on the processing

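The 5 filtered Hoxd genes rose in AntNPC in every alternative run in which they were tested, including each fit without 1 library (Hoxd1 0.86 to 0.93, Hoxd8 2.35 to 2.41, Hoxd9 2.39 to 2.67, Hoxd10 0.70 to 0.91, Hoxd13 2.41 to 2.56). They had passed the filter only through the EED-/- libraries. Of the 3 genes below it, Hoxd11 kept its AntNPC call, while those of Hoxd3 and Hoxd12 changed with the settings named above. With at least 1 FPKM required in 4 libraries only 3 of the 5 were tested, and these 3 rose in AntNPC and in mESC. Of all 12908 genes in that fit, 2316 rose in AntNPC and 2357 in mESC. In mESC 3 rose after quantile normalization, 4 with equal sums, 0 in the mESC libraries alone and 4 to 5 with single libraries left out. Of the changes from mESC to AntNPC, the count that fell in WT was 1, but 2 with a pseudocount of 0.1 and 0 under the stricter filter, equal sums, the replicate block and without replicate 1 of both AntNPC groups, and 0 to 1 with single libraries left out. Within EED-/- the count that rose was 1, but 0 with a pseudocount of 0.1, quantile normalization or the replicate block, 1 with equal sums, but Hoxd9 in place of Hoxd8, 2 without replicate 1 of both AntNPC groups, and 0 to 2 with single libraries left out; without the filter 1 fell. For the difference of the genotype effect 0 rose and 0 fell, but 1 rose without replicate 1 of both AntNPC groups, 0 to 2 rose with single libraries left out, and 1 fell without the filter.

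Signs turned only among values that had not passed. From mESC to AntNPC, with single libraries left out, Hoxd10 ran from -0.055 to 0.0115 in WT and from -0.33 to 0.052 in EED-/-, and Hoxd13 from -0.28 to 0.76 in EED-/-. The difference of the genotype effect ran from -0.30 to 0.073 for Hoxd10 and from -0.056 to 0.53 for Hoxd1, and for Hoxd10 it was 0.015 without replicate 1 of both AntNPC groups. The libraries behind these turns were those of mESC and, for Hoxd10, also EED-/- AntNPC replicate 1. Apart from the constructions named (fewer genes or fewer libraries), the cause was not tested.

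Over all genes tested, EED-/- against WT in AntNPC gave 2507 higher and 1060 lower genes, against 4323 and 2800 in AntNPC libraries alone, 1945 and 1945 after quantile normalization, 2068 and 655 with equal sums and 1955 and 697 with the block. In mESC 2732 and 373 became 1216 and 1113 (quantile), 1763 and 163 (equal sums), 1735 and 190 (block) and 0 and 0 (mESC alone). AntNPC against mESC within EED-/- went from 1963 and 2282 to 1331 and 1384 (equal sums) and 938 and 1383 (block). The difference of the genotype effect went from 545 and 1541 to 733 and 841 (quantile), 312 and 774 (equal sums) and 275 and 776 (block). For WT AntNPC against WT mESC equal sums moved the median of all genes from 0.17 to 0.42, and within EED-/- from -0.01 to 0.23. The replicate block ended, among Hoxd results, only the calls named beside it in the text (Hoxd3 in AntNPC, and Hoxd1 and Hoxd8 from mESC to AntNPC). The mESC numbers correlated negatively, and with them crossed 2432 and 979 genes were called in AntNPC and 2441 and 344 in mESC. Depth is unknown, so the counting error of low Hoxd levels was not estimated, and 3 of the 8 genes lie under the filter.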

Other observations

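Of 22 Polycomb and Trithorax genes, the textbook regulators of Hox clusters, 5 rose and 2 fell in AntNPC, where 18.3% of all genes rose and 7.75% fell. Cbx7, a chromatin-binding subunit of the other Polycomb complex, rose by 2.11 ± 0.26 (SE; limma, adjusted p = 0.00012), and Phf19, an accessory subunit of PRC2, by 1.40 (adjusted p = 0.00078). Ring1, an enzyme subunit of the other complex, fell by 0.97 on the log2 scale (adjusted p = 0.0020) and Phc2 by 0.53 (adjusted p = 0.0054). Eed was among those that rose, and Phc1 (0.83, adjusted p = 0.0048) did not pass with equal sums (adjusted p = 0.083). In mESC 7 rose and none fell, where 20.0% of all genes rose and 2.73% fell. The rise was led by Phc2 (1.97, adjusted p = 1.5e-05), opposite in sign to its change in AntNPC, and Cbx2 (1.33, adjusted p = 0.00021).

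Hoxd13, the Hoxd gene of highest mean level, was compared with every other tested gene by the Pearson correlation of log2(FPKM + 1) over the 12 libraries, as a description, since the libraries share 2 genotypes. The most like genes outside the cluster were Arntl2 (0.995), Xlr3a (0.989), Hoxa3 (0.989), Slc40a1 (0.987) and Aim1 (0.986), on chromosomes 6, X, 6, 1 and 10. Arntl2 had a mean of 1.25 FPKM in WT mESC, 7.41 in EED-/- mESC, 1.17 in WT AntNPC and 7.83 in EED-/- AntNPC. Only Hoxa3 of these 5 is a Hox gene.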
